A study of Mus musculus with 6 samples.

Results

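The expression of extracellular matrix and stellate cell genes was examined in the mouse pancreas. The 44 genes were taken by symbol from the 22556 genes listed for every sample: collagens, matrix glycoproteins and proteoglycans, crosslinking enzymes, fibroblast and stellate cell markers and TGF-β family ligands. All 44 were found in the tables, and 41 of them reached a mean of 1 TPM (transcript reads per length, scaled to 1000000 in each library) over the 6 samples and were tested together with 16778 genes in all. Ltbp2, Tagln and Inhba stayed under that level.

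RNA-sequencing was done on whole pancreas from 6 wild-type C57BL/6 mice aged 8 weeks (male, according to the methods), 2 in each of 3 groups. The saline mice were the controls. The AP mice had acute pancreatitis induced with caerulein (cerulein in the sample labels), a cholecystokinin analog that over-stimulates acinar cells, given intraperitoneally 10 times at 200 µg/kg after fasting for 8 h. The polyI:C-pretreated AP mice received polyI:C, a synthetic double-stranded RNA that is sensed by TLR3, at 10 mg/kg before the same caerulein course. According to the methods, the mouse model was examined at 24 h after the first caerulein injection. The interval between polyI:C and caerulein in the sequenced mice was not stated in the sources used here, and a sequenced group given polyI:C without caerulein was not analysed here.

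The extracellular matrix is a mesh of fibrillar collagens, basement membrane sheets, adhesive glycoproteins and proteoglycans. In the pancreas, quiescent stellate cells and fibroblasts around the acini and ducts make much of it, and after injury these cells can turn into myofibroblasts that express smooth muscle actin and deposit fibrillar collagen, a step in which TGF-β is a well-known signal. Collagen chains are hydroxylated and assembled as trimers inside the cell, then trimmed and crosslinked outside it.

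Promoters of 4 genes are shown to give the sequence context of the genes described most closely: the largest fitted rises among the proteoglycans, the fibrillar collagens and the adhesive glycoproteins, and one gene that did not pass the threshold. The sequences are from RefSeq on GRCm38.p6, run 5′ to 3′ on the coding strand, and stop before the start site. Vcan lies at chr13:89742513-89742762 on the minus strand, Col3a1 at chr1:45311288-45311537 on the plus strand, Tgfbi at chr13:56609336-56609522 on the plus strand, shortened to 187 bases before the first annotated exon, and Lama2 at chr10:27616943-27617192 on the minus strand. The RefSeq start of Lama2 lies 2816 bases inside the GENCODE M21 gene. Capitals mark motif matches on either strand.
Vcan: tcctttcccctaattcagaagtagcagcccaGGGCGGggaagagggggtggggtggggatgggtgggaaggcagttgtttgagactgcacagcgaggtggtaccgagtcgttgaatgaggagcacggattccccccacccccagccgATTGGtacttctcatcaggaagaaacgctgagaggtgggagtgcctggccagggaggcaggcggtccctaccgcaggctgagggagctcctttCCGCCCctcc
Col3a1: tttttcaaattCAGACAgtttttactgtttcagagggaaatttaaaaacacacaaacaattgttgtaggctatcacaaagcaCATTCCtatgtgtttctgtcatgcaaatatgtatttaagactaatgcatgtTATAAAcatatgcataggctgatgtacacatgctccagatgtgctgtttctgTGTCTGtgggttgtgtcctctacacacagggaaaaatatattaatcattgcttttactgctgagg
Tgfbi: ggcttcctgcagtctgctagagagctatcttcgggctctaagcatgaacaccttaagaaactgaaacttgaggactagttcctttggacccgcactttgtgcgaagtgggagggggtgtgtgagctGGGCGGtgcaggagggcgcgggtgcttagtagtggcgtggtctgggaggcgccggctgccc
Lama2: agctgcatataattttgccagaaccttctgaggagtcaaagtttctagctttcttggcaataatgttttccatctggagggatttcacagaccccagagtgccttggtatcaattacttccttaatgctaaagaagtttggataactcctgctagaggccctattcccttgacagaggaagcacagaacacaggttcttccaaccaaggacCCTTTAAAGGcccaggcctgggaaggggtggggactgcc

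The Vcan window held 2 GC boxes, searched as GGGCGG, and 1 CCAAT box, and the Tgfbi window held 1 GC box. The Col3a1 window held the SMAD motif CAGACA at 2 places and the TEAD motif CATTCC at 1. It also held a TATA box, searched as TATAAA, which lay 117 bases before the start. The Lama2 window held 1 CArG box. The RefSeq table covered 30 of the 44 genes with 35 windows, counted over bases before the start. The SMAD motif was found in 31.4% of those windows and in 17.1% of all 32851 windows, a GC box in 48.6% against 32.7%, a TATA box in 22.9% against 12.4% and the TEAD motif in 17.1% against 12.6%. A CCAAT box was found in 25.7% against 33.8%, TGANTCA (the AP-1 motif) in 2.86% against 6.75% and the CArG box in 2.86% against 1.47%. These matches describe letters in the windows and were not tested.

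In AP mice, 28 of the 41 tested matrix and stellate cell genes were raised and 0 were lowered against saline mice. Of all 16778 tested genes, 18.2% were raised and 4.03% were lowered in this comparison. A gene was called at an adjusted p of at most 0.05 (limma, Benjamini-Hochberg over all tested genes) and at least a 2-fold change. With the same fold, 0 were also lowered at an unadjusted p of at most 0.05 and with voom on estimated reads. The log2 fold changes of the 41 genes ran from -0.73 to 3.18 with a median of 1.44, against a median of 0.45 over all tested genes. In 36 of the 41, both AP mice lay above both saline mice, an order found upward in 52.7% of all tested genes. The TPM scale is relative, and with median-of-ratios scaling of the columns the median over all tested genes was 0.058. With that scaling 20 of the 41 genes were raised (9.49% of all tested genes), all 20 among the 28, and Dcn and Lama2 were lowered (7.18% of all tested genes). In bulk tissue, fewer cells of a type and less RNA per cell cannot be told apart.

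**Figure D1:**
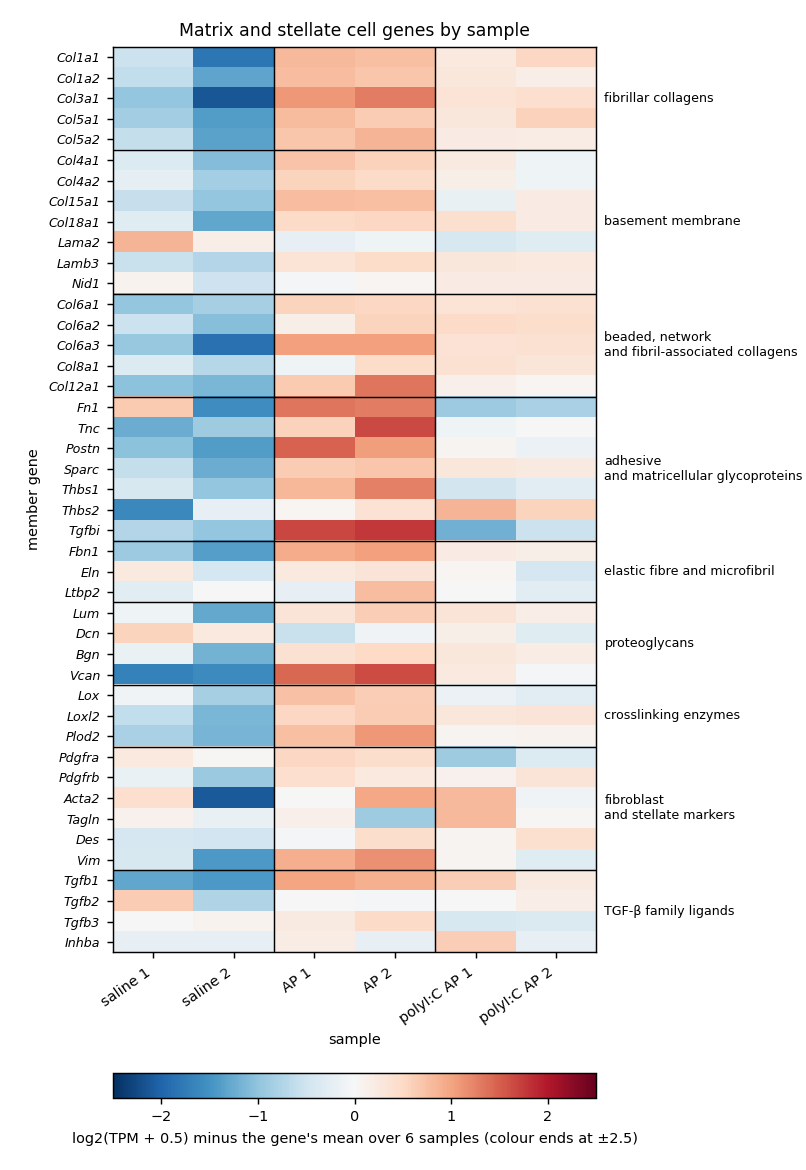
Level of each of the 44 genes (rows, grouped by role) in each of the 6 mice (columns), as log2(TPM + 0.5) minus the gene's mean over the 6 samples; red is above and blue below that mean. Most rows are blue in the saline mice and red in the AP mice, and the 5 fibrillar collagens are all paler with polyI:C pretreatment. Dcn and Lama2 run the other way between saline and AP, and Ltbp2, Tagln and Inhba were below the level tested.

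The saline mice were the least alike. Saline replicate 1 lay above saline replicate 2 in 36 of the 41 genes, with a median gap of 0.59 on the log2 scale, while the median gap over all tested genes was 0. The median gaps of the same 41 genes within the AP and the polyI:C-pretreated AP pairs were -0.10 and 0.04. Leaving out a control shifted the set between AP and saline, from a median log2 difference of 1.44 with all 6 mice. It became 1.19 without saline replicate 2 and 1.74 without saline replicate 1, and stayed at 1.44 without AP replicate 2. The matching values over all tested genes in these refits are not given here, so a shift of all genes is not separated from one of the set. Estimated reads were 3310954 and 3958267 in the saline mice and between 6970699 and 10832429 in the other 4, so that low genes were measured least precisely in the controls.

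The fibrillar collagens form the load-bearing fibres of connective tissue, and all 5 tested chains were raised in AP mice, with a median log2 fold change of 1.84. Col3a1, the type III chain, had the highest level of the group. Its TPM was 72.4 and 31.9 in saline, 302 and 348 in AP and 180 and 191 in pretreated AP mice. The 3 groups did not overlap, with the pretreated mice in the middle. The change from saline to AP was 2.74 ± 0.34 (log2 fold change ± SE, n = 2 mice per group, adjusted p = 0.00108, limma), a 6.68-fold rise. Col1a1 and Col1a2, the chains of type I collagen, rose by 1.95 and 1.70 on the log2 scale. Col5a1 and Col5a2, whose type V product sits inside type I fibrils, rose by 1.84 and 1.74. All 5 were also raised with median-of-ratios scaling. Col3a1 and Col5a2 are neighbours on chromosome 1 in opposite orientation, 24.6 kb apart.

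The basement membrane genes moved less evenly, with 5 of 7 raised. Col4a1, a chain of the type IV network, had the highest level. Its TPM was 58.1 and 34.5 in saline, 122 and 111 in AP and 86.5 and 68.9 in polyI:C-pretreated AP mice, again without overlap between groups. Col15a1, a basement membrane-associated collagen, changed most. Its TPM was 5.87 and 4.35 in saline, 15.7 and 15.4 in AP and 7.88 and 10.4 in pretreated AP mice, and the rise in AP was 1.53 ± 0.21 (adjusted p = 0.00153, limma). Col4a2, Col18a1 (the endostatin precursor) and Lamb3 (a laminin β chain) rose by 1.05, 1.30 and 1.04. With median-of-ratios scaling, only Col15a1 of the 7 stayed past both parts of the threshold upward. Nid1, a linker of laminin and type IV collagen, had a log2 fold change of 0.21 (adjusted p = 0.421), and -0.22 with median-of-ratios scaling.

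Lama2, the α2 laminin chain found around muscle and nerve, stood apart from the other 6. Its TPM was 16.2 and 9.85 in saline, 7.51 and 8.11 in AP and 6.56 and 7.01 in pretreated AP mice. Both caerulein groups lay below both controls. The difference between AP and saline was -0.66 ± 0.22 (adjusted p = 0.0504, limma) on the TPM scale and -1.08 (adjusted p = 0.0106) with median-of-ratios scaling, where it passed the threshold.

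Among the other collagens of the set, 4 of 5 were raised. Col6a1, Col6a2 and Col6a3 encode the chains of type VI collagen, which forms beaded filaments at cell surfaces. Col6a1 had the highest TPM of them, 28.9 and 31.7 in saline, 84.7 and 81.6 in AP and 72.3 and 74.8 in pretreated AP mice. Col6a3 changed most, from 10.3 and 5.18 TPM in saline to 42.1 and 42.0 in AP, with 26.4 and 26.7 in pretreated AP mice. Its log2 fold change in AP was 2.44 ± 0.27 (adjusted p = 0.000735, limma). Col12a1, a collagen on the surface of type I fibrils, rose by 2.08, from 0.306 and 0.251 TPM in saline to 2.11 and 3.65 in AP mice. It reached the mean of 1 TPM needed for testing only through the AP mice, which limits its place among the raised genes. Its call was also kept with no filter on low values. Col8a1, a short-chain network collagen, had a log2 fold change of 0.70 and did not pass (adjusted p = 0.0953).

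Ratios between chains do not depend on the scaling of a library. The ratio of Col6a3 to Col6a2 was 0.988 and 0.723 in saline, 2.46 and 1.84 in AP and 1.22 and 1.27 in pretreated AP mice. The ratio of Col3a1 to Col1a1 was 5.70 and 6.42, then 9.21 and 10.9, then 8.11 and 7.12 in the same order of groups. Neither ratio overlapped between groups. The ratio of Col1a1 to Col1a2 ran from 0.407 to 0.766 over all 6 mice with overlapping groups. Among the other ratios taken, Col6a1 to Col6a2 and Col5a1 to Col5a2 overlapped between groups. Col3a1 to Col1a2 and Col4a1 to Col4a2 did not. With 2 mice a group, an exact two-sided permutation test of a ratio cannot give a p below 0.333, so these ratios were not tested.

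Of the adhesive and matricellular glycoproteins, which bind cells to the matrix or modulate that contact, 5 of 7 were raised in AP mice. Sparc, a collagen-binding protein, had the highest mean level. Its TPM was 58.9 and 37.8 in saline, 140 and 144 in AP and 109 and 105 in pretreated AP mice. Tgfbi, a TGF-β-induced adhesion protein, had the largest fitted rise in AP, with Postn close behind and ahead of it at a pseudocount of 0.1 TPM and with voom. The TPM of Tgfbi was 31.7 and 27.0 in saline, 170 and 184 in AP, and 22.9 and 36.5 in pretreated AP mice. The pretreated mice thus overlapped with the saline mice and lay far below the AP mice. The rise of Tgfbi in AP was 2.57 ± 0.21 (adjusted p = 0.000265, limma). Postn (periostin), Tnc (tenascin C) and Thbs1 (thrombospondin 1, an activator of latent TGF-β) rose by 2.48, 2.17 and 1.73.

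Fn1 (fibronectin) and Thbs2 did not pass in AP mice. Fn1 stood at 24.4 and 4.90 TPM in saline, 39.5 and 37.6 in AP and 7.93 and 8.51 in pretreated AP mice. Both AP mice lay above both saline mice, which were far apart, and the difference of 1.75 ± 0.61 had an adjusted p of 0.0596 (limma). Thbs2 had a log2 fold change of 1.11 in AP (adjusted p = 0.0891) and was the one glycoprotein of the 7 with a positive log2 fold change between pretreated AP and AP, 0.50.

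Fbn1, the main microfibril protein, rose from 26.7 and 19.2 TPM in saline to 97.6 and 104 in AP mice, and stood at 58.6 and 56.0 in pretreated AP mice. The rise was 2.13 ± 0.15 (adjusted p = 0.000163, limma), and the groups did not overlap. Annotated exons of the opposite-strand gene Gm9913 cover 20.1% of Fbn1 exon bases, and the strand setting of the counting was not stated. Eln (elastin) had a log2 fold change of 0.39 (adjusted p = 0.315). Ltbp2, a latent TGF-β binding protein, ranged from 0.270 to 1.09 TPM over the 6 mice.

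The proteoglycans held both the largest rise and the most abundant gene. Vcan (versican), a large proteoglycan of provisional matrix, stood at 1.70 and 1.88 TPM in saline, 18.9 and 21.6 in AP and 7.92 and 6.46 in pretreated AP mice. The 3 groups did not overlap, and the rise in AP was 3.18 ± 0.14 (adjusted p = 4.01e-05, limma), or 9.05-fold. Lum (lumican) and Bgn (biglycan) rose by 1.16 and 1.12, and neither passed with median-of-ratios scaling. Dcn (decorin), a small proteoglycan that decorates collagen fibrils, stood at 671 and 540 TPM in saline, 308 and 425 in AP and 503 and 366 in pretreated AP mice. Both AP mice lay below both saline mice, with a difference of -0.73 ± 0.21 (adjusted p = 0.0327, limma), which is less than 2-fold. Dcn and Lum lie 47.0 kb apart on chromosome 10 in the same orientation.

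Dcn weighed heavily in any sum over the set. The summed level of all 44 genes was 1459 and 1022 TPM in saline, 2142 and 2426 in AP and 1719 and 1541 in pretreated AP mice. Without Dcn it was 788 and 482, then 1834 and 2001, then 1216 and 1175 in the same order.

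The 3 crosslinking enzymes were all raised in AP mice. Lox (lysyl oxidase) had the highest level, 7.99 and 4.63 TPM in saline, 14.5 and 13.5 in AP and 7.68 and 7.04 in pretreated AP mice, where it overlapped with saline. Plod2, the lysyl hydroxylase of collagen telopeptides, changed most, from 1.87 and 1.36 TPM in saline to 6.49 and 8.38 in AP, with 3.87 and 3.90 in pretreated AP mice. Its log2 fold change in AP was 1.91 ± 0.26 (adjusted p = 0.00155, limma). Loxl2 rose by 1.46. Lox did not pass with median-of-ratios scaling.

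**Figure D2:**
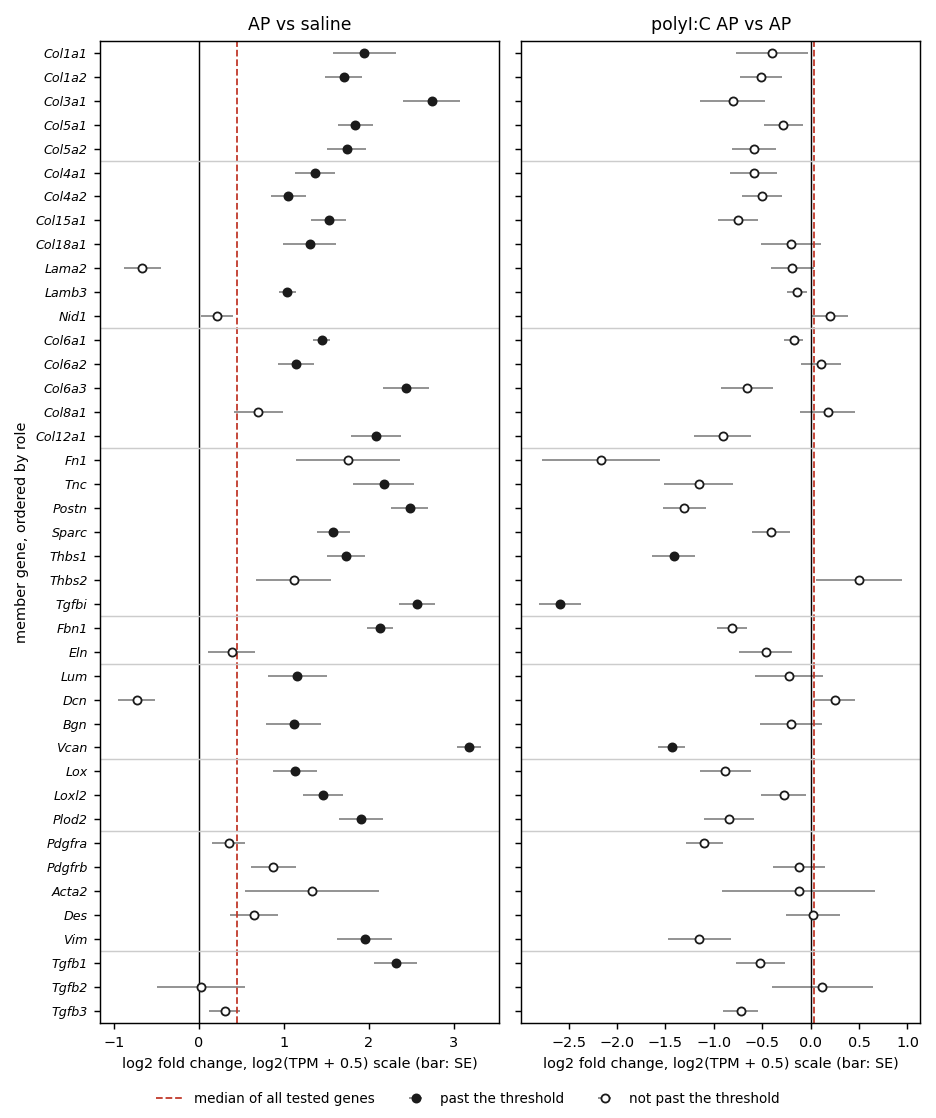
Log2 fold change ± SE of the 41 tested genes, ordered by role, for AP against saline (left) and polyI:C-pretreated AP against AP (right); filled points passed the threshold and the red dashed line is the median of all tested genes. On the left 28 points are filled, all above 0; on the right 34 points lie below 0 and 3 are filled, Tgfbi, Thbs1 and Vcan.

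Among the 5 tested fibroblast and stellate cell markers, 1 was raised in AP mice, against 18.2% of all tested genes. All 5 had log2 fold changes above 0 (Pdgfra was at -0.07 with median-of-ratios scaling), as had 70.7% of all tested genes. In 4 of the 5, both AP mice lay above both saline mice, an order found upward in 52.7% of all tested genes. The raised gene was Vim (vimentin, an intermediate filament of mesenchymal cells and leukocytes). Its TPM was 40.5 and 19.3 in saline, 101 and 119 in AP and 55.9 and 43.0 in pretreated AP mice, and the rise in AP was 1.95 ± 0.33 (adjusted p = 0.00364, limma). Acta2, the smooth muscle actin that marks activated stellate cells as well as vessel walls, stood at 37.7 and 6.15 TPM in saline, 28.4 and 55.3 in AP and 49.7 and 26.6 in pretreated AP mice. All 3 groups overlapped, and the difference of 1.33 ± 0.79 did not pass (adjusted p = 0.229). Pdgfra, Pdgfrb and Des, the platelet-derived growth factor receptors and the muscle filament desmin, had log2 fold changes of 0.35, 0.88 and 0.65 in AP, none past the threshold. Without saline replicate 1, Acta2 and Pdgfrb were raised as well. Tagln, a smooth muscle actin-binding protein, ranged from 0 to 1.13 TPM, and 67.9% of its annotated exon bases are shared with genes of the opposite strand.

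Of 12 tested further fibroblast and stellate markers, 1 was raised in AP mice, Pdpn, by 2.54. Pdpn was also listed as a lymph node and lymphatic marker. Of 12 tested pericyte and smooth muscle markers, 3 were raised, Mcam, Heyl and Cnn1, but 0 with median-of-ratios scaling and 1 with voom. Of all tested genes, 18.2% were raised. None of the 12 endothelial markers was raised or lowered in AP (limma), also at an unadjusted p with the same fold and with voom, and their summed level ran from 116 to 218 TPM over all 6 mice. Summed duct epithelium markers stood at 454 to 548 TPM in saline and at 4399 to 5128 TPM over both caerulein groups. Summed macrophage and monocyte markers stood at 765 and 491 TPM in saline, 2657 and 3100 in AP and 625 and 482 in pretreated AP mice. In AP against saline, 6 of 9 duct markers and 10 of 13 macrophage and monocyte markers were raised. The part of these cells in the changes of the matrix genes was not tested. Of 20 acinar genes listed to check the tissue, 7 had values, too few to check the tissue label. Of these 7, 5 were lowered in AP against saline mice, among them Amy2a5 and Bhlha15, also with median-of-ratios scaling and voom, and 3 were raised in pretreated AP against AP mice. Their summed level was 1990 and 1681 TPM in saline, 642 and 535 in AP and 1023 and 1045 in pretreated AP mice, and their part in the matrix gene values was not tested. All 11 islet markers had values, with a summed level of 1330 to 2364 TPM.

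Of the TGF-β family ligands, Tgfb1 was raised in AP mice. It stood at 1.13 and 0.972 TPM in saline, 7.48 and 6.96 in AP and 5.66 and 4.20 in pretreated AP mice, and its rise was 2.32 ± 0.25 (adjusted p = 0.000709, limma). Both caerulein groups lay above the controls. Tgfb3 had the highest level of the ligands, 12.3 and 13.2 TPM in saline, 14.5 and 17.4 in AP and 9.36 and 9.50 in pretreated AP mice, and its log2 fold change in AP was 0.31 (adjusted p = 0.232). Tgfb2 had 0.02, and Inhba, the activin A subunit, was listed at 0 in 4 of the 6 mice.

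PolyI:C-pretreated AP mice were then compared with AP mice, to ask which of these genes differed with the pretreatment. Of the 41 genes, 3 were lowered, Tgfbi, Vcan and Thbs1, and 0 were raised. Of all tested genes, 0.405% were lowered and 0.441% raised. No gene of the 41 was raised at an unadjusted p with the same fold or with voom. At an unadjusted p 8 were lowered, and the share of all tested genes under that rule was not counted. The median log2 fold change was -0.50, against 0.039 over all tested genes. Of the 41 values 34 lay below 0, while 54.7% of all tested genes lay above 0. In 31 of the 41, both pretreated mice lay below both AP mice, an order found downward in 22.1% of all tested genes.

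Tgfbi had the largest difference, -2.59 ± 0.21 (adjusted p = 0.0055, limma), a 6.01-fold lower level. Vcan differed by -1.44 ± 0.14 (adjusted p = 0.0148) and was 2.71-fold lower. Thbs1 stood at 33.3 and 22.0 TPM in saline, 78.7 and 105 in AP and 31.8 and 36.1 in pretreated AP mice, and differed by -1.41 ± 0.22 (adjusted p = 0.0443). For Tgfbi and Thbs1 the pretreated mice overlapped with the saline mice, while for Vcan they lay above them. These 3 calls were lost whenever any one of the 6 mice was left out, with the remaining log2 differences between -2.92 and -2.26 for Tgfbi, between -1.57 and -1.30 for Vcan and between -1.62 and -1.20 for Thbs1 over all alternatives run. Macrophage and monocyte markers moved in the same comparison, with 7 of 13 lowered, Csf1r, Lyz2, Mrc1, Cd163, Fcgr1, Itgam and Ccr2, and none of the 13 at 0 in every sample. Their part in the lower Tgfbi, Vcan and Thbs1 levels was not tested. By flow cytometry, a measure of cells rather than RNA, the paper reported that polyI:C left macrophage infiltration unaffected.

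Fn1 had the second largest difference by size, -2.16 ± 0.61, a 4.48-fold lower level, and did not pass (adjusted p = 0.178, limma). The AP and the pretreated mice did not overlap. When only the 4 AP and pretreated mice entered the fit Fn1 was the 1 gene called among the 41. Postn (-1.31, adjusted p = 0.0538), Pdgfra (-1.10, adjusted p = 0.057) and Fbn1 (-0.81, adjusted p = 0.0691) had the next smallest adjusted p-values among the genes not called, and the last was under 2-fold. Pdgfra, the receptor that marks fibroblasts, stood at 16.1 ± 1.69 TPM (SD, n = 2) in saline, 20.5 ± 0.758 in AP and 9.51 ± 2.63 in pretreated AP mice, and both pretreated mice lay below both controls as well. The fibrillar collagens differed by -0.28 to -0.80, and none of the 5 passed here, with voom, or at an unadjusted p with the same fold.

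**Figure D3:**
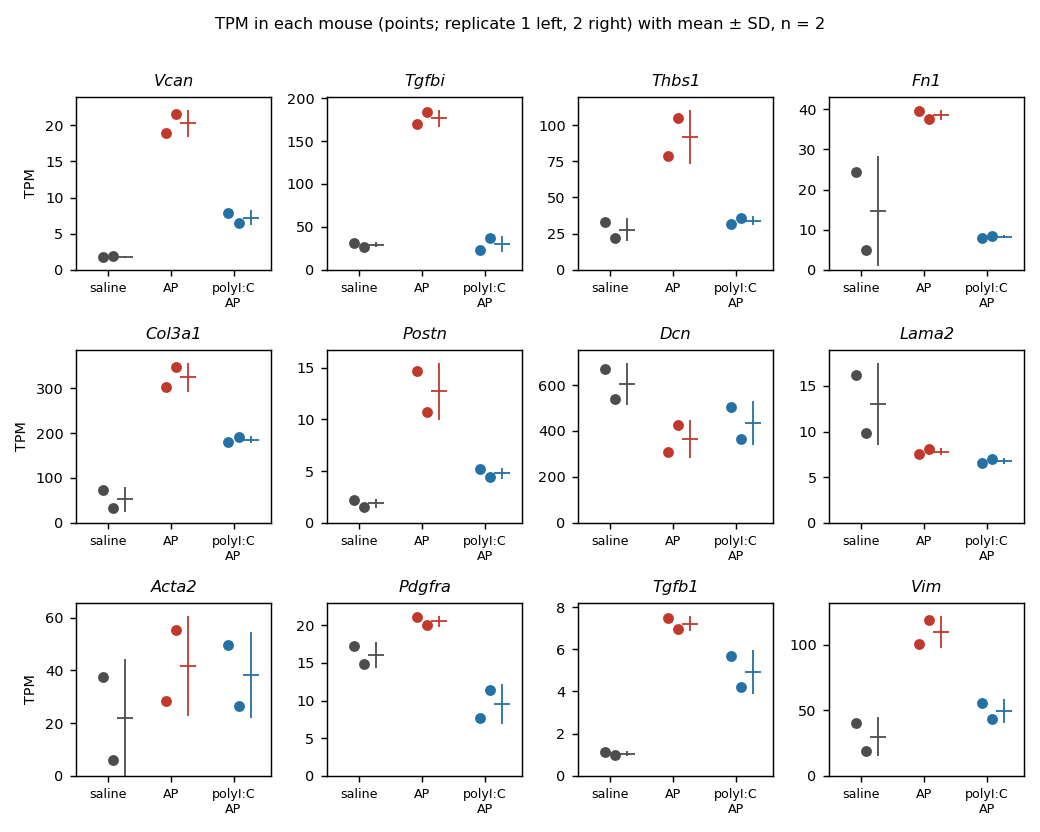
TPM of 12 genes in each mouse (points) with mean ± SD of the 2 mice per group; each panel has its own axis starting at 0. Tgfbi and Thbs1 are high in the AP mice alone, Vcan, Col3a1, Postn and Tgfb1 are intermediate with polyI:C pretreatment, Dcn and Lama2 are highest in saline, and the 3 groups overlap for Acta2.

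Against saline mice, 18 of the 41 genes were raised and 0 were lowered in polyI:C-pretreated AP mice. Of all tested genes, 17.0% were raised and 2.99% lowered in this comparison. With the same fold, 0 were lowered at an unadjusted p, while voom called 2 as lowered, Lama2 and Pdgfra. The median log2 fold change was 0.93, against 0.48 over all tested genes, and in 30 of the 41 both pretreated mice lay above both saline mice, an order found upward in 54.4% of all tested genes. The comparison shares its mice with the other two, so its values are set beside theirs without a test. All 5 fibrillar collagens were raised, with Col3a1 at 1.94 ± 0.34 (adjusted p = 0.00456, limma). Vcan and Tgfb1 were raised by 1.74 and 1.80. Thbs2, at 1.11 in AP mice without passing, was raised here by 1.62 (adjusted p = 0.0274), from 0.925 and 3.27 TPM in saline to 7.34 and 5.94. This call was kept in 5 of 15 alternatives. Between pretreated AP and AP mice Thbs2 did not pass (0.50, adjusted p = 0.691, limma). Tgfbi, Thbs1 and Lox had log2 fold changes of -0.02, 0.32 and 0.25 and did not pass, and with median-of-ratios scaling Thbs1 and Lox were at -0.13 and -0.17.

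This comparison depended most on the scaling. With median-of-ratios scaling 5 of the 41 genes were raised (8.00% of all tested genes), Col3a1, Col5a1, Col6a3, Vcan and Tgfb1. Lama2 and Pdgfra were lowered, and the share of all tested genes lowered with that scaling was not counted here. When either pretreated mouse was left out, the calls of Col3a1 and Col6a3 were lost, while Col5a1, Vcan and Tgfb1 kept theirs.

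Further genes of the matrix pathway were read from lists outside the set. Of 19 tested genes of collagen biosynthesis and processing, 10 were raised and 1 lowered in AP mice, with 4 raised after median-of-ratios scaling and 5 with voom. Of all tested genes, 18.2% were raised on the TPM scale and 9.49% with median-of-ratios scaling. Serpinh1, the collagen chaperone, rose by 2.19 and Bmp1, a procollagen proteinase, by 1.31, while P4hb, the prolyl hydroxylase subunit that also folds secreted proteins in general, fell by 1.29 on the log2 scale. Of 14 other collagens, 1 was raised (Col14a1, 1.03) and 1 lowered (Col23a1, -1.36), and Col14a1 did not pass with median-of-ratios scaling or voom. The 12 tested laminins and other basement membrane genes outside the set had a median log2 fold change of 0.25, below the 0.45 of all tested genes. Lama5, a laminin α chain, rose by 1.78. Of 26 other glycoproteins and proteoglycans, 7 were raised and 1 lowered, with Spp1 at 2.34, Efemp2 at 2.25 and Vtn at -2.61. With median-of-ratios scaling 6 were raised and 2 lowered, and with voom 7 and 2.

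Of 20 matrix receptors, 12 were raised and 0 lowered in AP mice (0 lowered also at an unadjusted p with the same fold, limma), against 8 raised and 2 lowered with median-of-ratios scaling and 10 raised and 1 lowered with voom. Among those raised were the collagen-binding integrin subunit Itga2 (3.92), the hyaluronan receptor Cd44 (3.62) and the syndecan Sdc1 (3.49). Of 24 TGF-β receptors and response genes, 3 were raised, against 18.2% of all tested genes, and the list median was 0.40 against 0.45. With median-of-ratios scaling 3 were raised and 1 lowered, against 9.49% and 7.18% of all tested genes, and with voom 3 were raised and 0 lowered. Tgif1 rose by 2.91 and Tgfbr2 by 1.77. Between polyI:C-pretreated AP and AP mice, 1 gene of these 6 lists passed, Col7a1, the anchoring fibril collagen. Its TPM was 110 and 118 in saline, 91.0 and 93.1 in AP and 40.0 and 38.3 in pretreated AP mice. The difference was -1.22 ± 0.09 (adjusted p = 0.00356, limma), and both other groups lay above the pretreated mice.

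**Figure D4:**
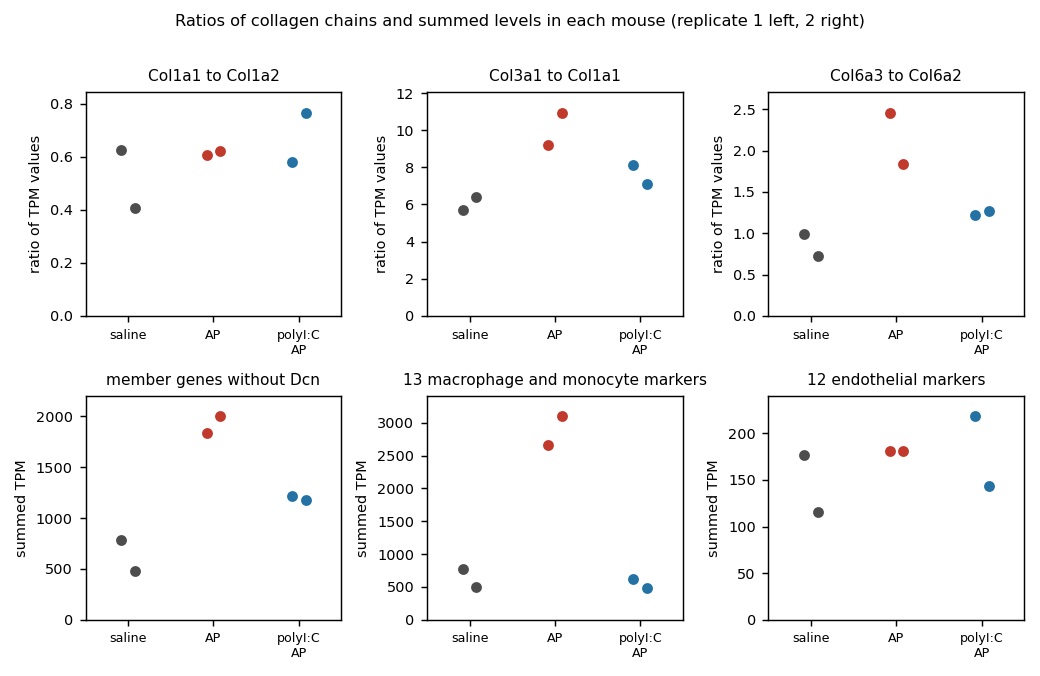
Ratios of TPM values of collagen chains (top) and summed TPM of gene sets (bottom) in each mouse, with axes starting at 0. The Col3a1 to Col1a1 and Col6a3 to Col6a2 ratios are highest in AP mice, and the Col1a1 to Col1a2 ratio overlaps between groups. The matrix and stellate genes summed without Dcn are intermediate with polyI:C pretreatment. The summed macrophage and monocyte markers overlap between saline and pretreated mice. For the endothelial markers, the pretreated mice overlap with both other groups, while both AP mice lie slightly above both saline mice.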

How the data were processed

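The authors deposited TPM per gene and sample. According to the methods and labels, the authors used Trimmomatic for trimming, STAR for mapping to mm10, HTSeq for counting and DESeq2 for calling genes. The step from counts to TPM, tool versions and the strand setting were not given in the sources used here. Each column sums to 1000000. Of 22556 Ensembl identifiers, 22490 were in GENCODE M21 (GRCm38).

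limma 3.58.1 (R 4.3.3) was fitted to log2(TPM + 0.5) with 1 coefficient per group over all 6 mice, for genes whose mean reached 1 TPM. The variance prior followed log2(mean TPM × exon length + 1), and p-values were adjusted over all tested genes. Reported changes refer to log2(TPM + 0.5) and understate those of low genes. The labels give 2 numbered samples per group, so p-values measure the spread between these samples. The labels' replicate numbers did not pair the samples.

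Depth was estimated from the spacing of low TPM values: 51.1% to 62.4% of low values lay within 0.1 of a whole read, against 18.8% to 20.5% with shuffled gene lengths. In simulated data for AP against saline, 140 of 195 genes changed 4-fold were recovered with 12 false calls among 16708 genes. Whether these rates hold for the measured samples was not tested. The 44 genes, lists and tests were chosen with earlier results of these data known. Per role, values per mouse are given for the most abundant gene, the one changed most in AP and those changed with polyI:C, and a few others (Lama2, Fn1, Acta2, Pdgfra, Thbs2) were added after their values were seen. One item is not reported here. Alternatives were pseudocounts of 0.1 and 1 TPM, no filter or a mean of 5 TPM, other scalings, another prior, voom on estimated reads, the replicate block, 4 samples only, no fold minimum, unadjusted p and leaving out each mouse. Figures were drawn with matplotlib 3.10.9.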

Additional observations from a re-analysis of the deposited data

How the results depend on the processing

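In AP against saline mice, 16 of the 28 raised genes kept their call under every alternative in which they were tested. Of these, Col12a1, Plod2, Tgfb1 and Tnc were not tested with a mean of at least 5 TPM. The count ran from 17 to 31 when 1 mouse was left out, and was 19 with upper-quartile scaling. Lowered genes numbered 2 with median-of-ratios and 2 with upper-quartile scaling (Dcn and Lama2), 1 without a fold minimum and 0 to 1 when 1 mouse was left out. The median log2 fold change moved to 1.02 and 0.99 with those scalings and ran from 1.19 to 1.74 when 1 mouse was left out. Between pretreated AP and AP mice, lowered genes numbered 5 with a mean of at least 5 TPM, 1 with a prior following the mean log2 value, 7 with voom, 1 with only the 4 samples compared, 8 at an unadjusted p and 0 to 1 when 1 mouse was left out. That 1 gene was Tgfbi with the other prior and Fn1 in the other cases. Between pretreated AP and saline mice, raised genes numbered 5 with either scaling, 10 with voom and 5 to 22 when 1 mouse was left out. Lowered genes numbered 2 with median-of-ratios and upper-quartile scaling, voom and no fold minimum, and 0 to 2 when 1 mouse was left out. The median moved to 0.50 and 0.45 with the scalings and ran from 0.65 to 1.20 when 1 mouse was left out. No called gene changed direction. Among genes not called, median-of-ratios and upper-quartile scaling each turned 5 in AP against saline (Eln, Nid1, Pdgfra, Tgfb2 and Tgfb3) and 4 in pretreated AP against saline (Lox, Nid1, Tgfb2 and Thbs1), and other alternatives turned at most 3 in a comparison. Why calls changed was not tested. When a mouse was left out, the lone mouse of its group was assumed to vary like the others. The counts of called genes in this paragraph are given without the shares of all tested genes in the same fits.

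Deviations of same-numbered samples were barely related, with correlations of 0.0069, -0.0045 and 0.034 between groups, so the number was not used as a pairing. With the replicate block, 29 genes were raised in AP against saline, 3 were lowered in pretreated AP against AP (Postn in place of Thbs1) and 19 were raised in pretreated AP against saline. The saline libraries were the shallowest, where 1 read at the median gene length is worth 0.217 and 0.264 TPM, which limits statements on Ltbp2, Tagln, Inhba and Col12a1.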
